A study of Mus musculus with 2 samples.

Results

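The genes described here are 5 inhibitors of cyclin-dependent kinases (Cdkn1a, Cdkn1b, Cdkn2a, Cdkn2c and Cdkn2d), the 3 genes of the retinoblastoma family (Rb1, Rbl1 and Rbl2), and the p53 gene Trp53 with the p53-responsive cyclin gene Ccng1. Members were chosen by symbol in the platform annotation of the Affymetrix Mu11k pair of arrays, called subA and subB. Of the 10 listed genes, 9 had at least 1 probe set that carried their symbol alone, out of 6137 genes so named on the pair. Chip subA carried 8 of them and subB 3, with Cdkn1a and Cdkn1b on both, which gave 12 probe sets. No probe set was annotated as Trp53, so p53 itself is not described here.

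CD4+ T cells were purified from lymph nodes and spleens of female B10.PL mice whose T cells bear a transgenic receptor against Ac1-11. This peptide is the acetylated N-terminus of myelin basic protein, a target of T cells in experimental autoimmune encephalomyelitis. The series compares stimulation with 4Y and with Ac1-11, and the labels give a time of 48 h. Both sample titles carry the letters TCL after this time, and no meaning is assigned to them here. In this field 4Y is the usual name of a peptide analogue with a tyrosine in place of a lysine, which binds the mouse class II molecule I-Au more stably, although the labels used here do not spell it out. Both deposited samples, 1 array for each chip, are labelled Ac1-11 and come from mice of the same labelled strain, and whether animals were pooled is not given in the sources used here.

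Cyclin-dependent kinases drive a cell from G1 into S phase by phosphorylating the retinoblastoma proteins, which otherwise hold E2F transcription factors silent. The Ink4 inhibitors, encoded by Cdkn2a, Cdkn2c and Cdkn2d, bind the cyclin D kinases, and the Cip/Kip inhibitors, encoded by Cdkn1a and Cdkn1b, bind cyclin-kinase complexes more widely. In T cells, the Cdkn1b product p27 and the Rbl2 product p130 are characteristic of resting cells, and antigen stimulation lowers both proteins before division, while Cdkn1a is induced by p53 and also by mitogens.

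Upstream sequences of the 3 members that counted as changed (Rbl2, Cdkn2a and Ccng1) are printed to show which motif matches stand before each start. They are the 250 bases before each RefSeq start in GRCm38.p6, read along the gene's strand, and Cdkn2a has a pair of starts whose transcripts encode different proteins, p19ARF from the outer start and p16INK4a from the inner one. Capitals mark matches, on either strand, to the E2F motif (TTTCCCGC, TTTGGCGC, TTTCGCGC or TTTGCCGC), the FoxO motif (TGTTTAC), the CHR element (TTTGAA), the CCAAT box (CCAAT) and the p53 half-site. No matches overlapped in the windows shown.
Rbl2, chr8:91069807-91070056, plus strand: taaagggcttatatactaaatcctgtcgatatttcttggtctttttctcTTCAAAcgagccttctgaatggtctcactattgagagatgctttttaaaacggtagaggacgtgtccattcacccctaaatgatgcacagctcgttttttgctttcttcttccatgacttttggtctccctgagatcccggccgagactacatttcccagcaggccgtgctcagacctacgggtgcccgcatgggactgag
Cdkn2a outer start, chr4:89294620-89294869, minus strand: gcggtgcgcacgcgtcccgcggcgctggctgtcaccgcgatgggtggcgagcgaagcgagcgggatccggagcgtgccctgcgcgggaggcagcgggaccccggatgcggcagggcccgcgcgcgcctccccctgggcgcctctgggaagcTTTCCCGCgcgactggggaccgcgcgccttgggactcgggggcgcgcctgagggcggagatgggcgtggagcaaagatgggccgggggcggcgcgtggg
Cdkn2a inner start, chr4:89282193-89282442, minus strand: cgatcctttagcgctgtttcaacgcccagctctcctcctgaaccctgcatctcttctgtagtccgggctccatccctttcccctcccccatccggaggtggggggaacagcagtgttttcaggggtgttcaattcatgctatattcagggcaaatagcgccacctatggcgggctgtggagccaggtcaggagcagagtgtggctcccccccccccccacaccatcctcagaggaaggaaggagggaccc
Ccng1, chr11:40755287-40755536, minus strand: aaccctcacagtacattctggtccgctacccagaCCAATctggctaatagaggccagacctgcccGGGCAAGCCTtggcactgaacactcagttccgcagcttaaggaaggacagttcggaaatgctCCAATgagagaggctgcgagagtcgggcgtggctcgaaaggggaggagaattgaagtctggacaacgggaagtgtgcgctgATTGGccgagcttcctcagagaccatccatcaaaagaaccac

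The outer Cdkn2a window held an E2F match that began 99 bases before the start, and the inner window held no match. An E2F match stood in 1.86% of all 32851 windows of this length. The Ccng1 window held a p53 half-site that began 185 bases before the start, and 3 CCAAT boxes. These motifs stood in 7.13% and 33.8% of all windows. The Rbl2 window held 1 CHR match, 201 bases before the start, a motif found in 16% of windows. Windows of members not printed also held matches, among them p53 half-sites before Cdkn1a, Cdkn2d and Trp53 and an E2F match before Rbl1. A match is a string of letters and does not show that a factor binds.

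Which condition was which could not be told from the files. Both comparisons are titled 4Y vs 1-11, while the deposited samples are labelled Ac1-11. Values stored under the Ac1-11 labels matched exactly those of the experiment named 4Y in the comparison table, for all 6584 probe sets of subA and all 6595 of subB. In addition, the log2 folds of 135 genes detected on both chips had a Pearson correlation of -0.56 and a Spearman correlation of -0.41 across genes, which are not independent replicates. All 7 named genes called increased or decreased on both chips had opposite calls, as had all 3 shared probe sets so called, so the deposited array may stand for different conditions on subA and subB. Values of the chips are therefore not combined. The array whose levels were deposited is called the deposited array here, and its partner the baseline array. Each value is given as deposited over baseline, and with the sign of a chip turned every higher value on it becomes a lower one of the same size.

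Levels are average differences, the mean of perfect match minus mismatch intensity over the probe pairs of a probe set, and can fall below 0. Subtracting the deposited change from the level gave that of the baseline array. Folds, presence calls, difference calls and probe pair scores are those of the authors' deposited table throughout. A probe set was detected if it was called present on the deposited array or not marked absent on the baseline array. It counted as changed with a fold of at least 2 in either direction, a matching increase or decrease call, and detection. The series' design text speaks of mean average differences, but no second array of a condition is among the files used here. With 1 array per condition and chip, no value has a replicate check and no p-value is given, and precision is limited by this number of arrays. As a measure of spread, the SD of a log2 fold between 2 probe sets of a gene was 0.46 on subA, from 251 genes, and 0.62 on subB, from 51 genes. Both probe sets of a gene were read on the same arrays, so this SD leaves out variation between arrays, RNA samples and animals.

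Of the T-cell markers on the chips, 5 of 5 were detected on subA and 7 of 7 on subB, Cd4 and Cd3e among them, and Cd8a was not detected. B-cell markers had 1 of 7 genes present on the deposited and 4 of 7 on the baseline subA array, with summed levels of 5213 and 6605 and with Cd22 below 0 on both and Fcer2a counted as lower on the deposited array. On subB 2 of 5 were present on both arrays, at sums of 11949 and 5264, most of it Cd74, taking levels below 0 as 0, with Cd79a, Pax5 and Cr2 below 0. Macrophage markers summed to 6383 and 3610 on the subA arrays, where 2 of 6 genes were detected and Fcgr1 was below 0. Lyz2 gave most of this sum, at 5294 and 2286. Its fold in the authors' deposited table was 6.2 higher, more than these levels give, with no difference call. On subB macrophage markers summed to 1908 and 3177, with 2 of 4 detected and Csf1r and Adgre1 below 0. Of the markers of NK, dendritic and erythroid cells and neutrophils, 0 of 8 were detected on subA and 3 of 8 on subB (Flt3, S100a8 and Hba-a1). The part of other cell types in the values below was not tested, and in a bulk sample fewer cells of a type and less RNA per cell cannot be told apart.

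On subA, the retinoblastoma family genes Rbl2 and Rb1 were higher on the deposited array and the Ink4 gene Cdkn2a was lower, while the other inhibitors had no difference call. On subB, Ccng1 was lower and Cdkn1a, the only member detected on both chips, had no difference call on either. Of the 7 member probe sets detected on subA, 2 counted as changed, against 4.46% of all 3343 detected probe sets. Of these 2 members, Cdkn2a was detected through the baseline array alone, where it was the higher, and Rbl2 was present on both arrays. Of the 2 detected on subB, 1 counted as changed, against 6.23% of 1813. The plot of levels shows each member on both arrays of its chip.

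**Figure D1:**
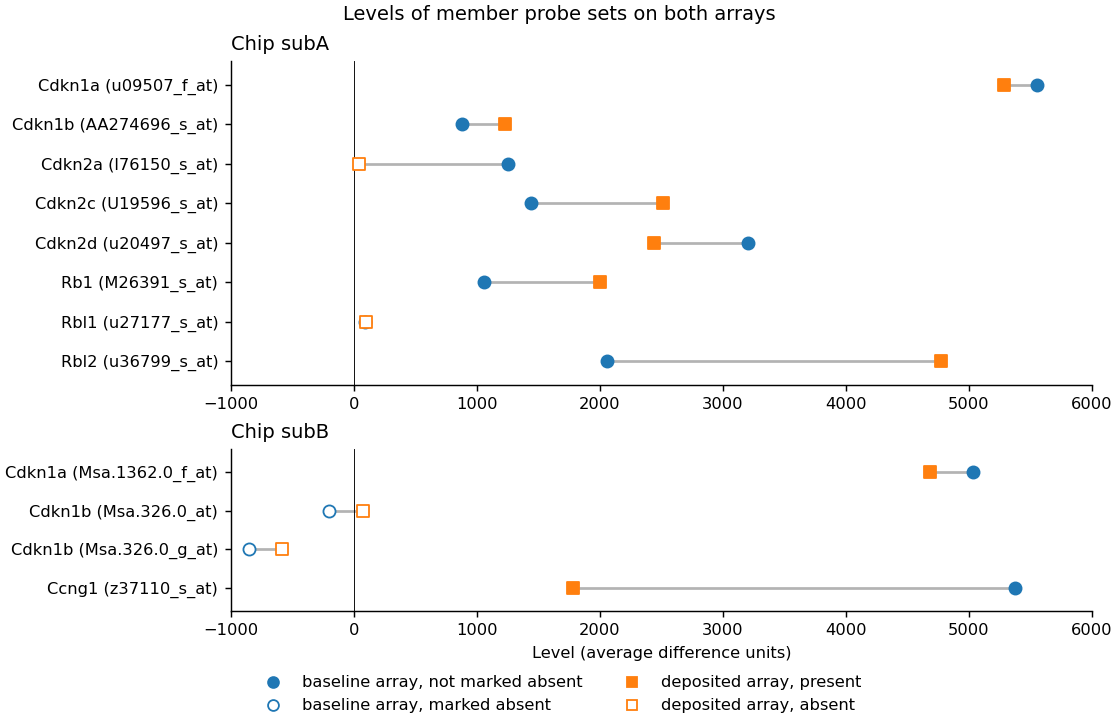
Level of each of the 12 member probe sets in average difference units (horizontal axis), with circles for the baseline array, squares for the deposited array and open symbols for an absent call. Rbl2, Rb1 and Cdkn2c lie higher on the deposited array, Cdkn2a and Ccng1 lower, and the symbols of Rbl1 (93 and 100) coincide near 0.

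Rbl2 encodes p130, the pocket protein that pairs with repressive E2F factors in resting cells. The gene lies on mouse chromosome 8, from 91070057 to 91123844 in GRCm38.p6. Its probe set u36799_s_at had a level of 4776 on the deposited array and 2055 on the baseline array, present on both. The deposited array was thus the higher one, and in the authors' deposited table the fold was 2.1 with an increase call. Of 20 probe pairs, 13 were scored as increased and 0 as decreased. Rbl2 was among 22 detected probe sets of the chip with at least 13 increased pairs and 0 decreased. A higher fold was deposited for 135 of the 3343 detected probe sets. Recomputed from the levels, the ratio was 2.32. Rbl2 was the 1 member of 7 that counted as changed upward, against 1.76% of detected probe sets.

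Rb1 encodes the retinoblastoma protein itself, and lies on chromosome 14 from 73192858 to 73325951. Probe set M26391_s_at had a level of 1999 on the deposited and 1055 on the baseline array, present on both. The authors' deposited table gave an increase call with a fold of 1.9, just below the threshold, so Rb1 did not count as changed. Of its 20 probe pairs, 10 were scored as increased and 1 as decreased. Rb1 and Rbl2 were the 2 of 7 detected members with an increase call, a call made for 3.14% of detected probe sets.

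Rbl1 encodes p107, the pocket protein that is made mainly in cycling cells, from a gene on chromosome 2 between 157145893 and 157204534. Its probe set u27177_s_at had levels of 100 on the deposited and 93 on the baseline array and was called absent on both. With 4 probe pairs scored as increased and 3 as decreased, no difference was detectable between these absent levels.

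The control probe sets of subA also differed between the arrays, in the same direction as Rbl2 and Rb1. The spike-in probe sets that were present, 6 in number, had folds of 1.5 to 2.1 higher in the authors' deposited table. The Gapdh control probe sets were 1.5- to 1.6-fold higher and those of Actb 1.6- to 1.9-fold higher. The median log2 fold of all detected probe sets of subA was 0, and the running median over probe sets of similar level was 0 at the level of Rbl2 and of Rb1. Whether the shift of the control probe sets has a part in the folds of Rb1 and Rbl2 was not tested.

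Cdkn2a is the locus of the Ink4 inhibitor p16 and of p19ARF, which stabilises p53. It lies on chromosome 4 from 89274473 to 89294619, and the files do not say which of its transcripts probe set l76150_s_at reads. The level was 46 on the deposited array, where the call was absent, and 1250 on the baseline array, which was not marked absent. The deposited array was thus near 0, with 7 probe pairs positive and 7 negative, while 15 of 20 pairs were scored as decreased and 1 as increased. The authors' deposited table gave a decrease call and an approximate fold of 14.3 lower.

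This approximate fold depends on how the absent level is treated. It lies close to 1 plus the change divided by a noise value, which the approximate folds of subA put at 90.7 units and from which 14.3 was recovered for Cdkn2a. With both levels raised to at least 200 units the fold was 6.25 lower, and with a floor of 500 units it was 2.5 lower. Since the deposited level lay below both floors, each of these folds is only the baseline level over the floor. Nothing is therefore read from their staying past 2. Among the detected probe sets of subA 2.69% counted as changed downward and 4.37% had a decrease call. Nothing is read from these shares for Cdkn2a, since it passed the detection filter only through the array where it was high. In the same direction, the B-cell genes Fcer2a (-59 and 600, detected through the baseline array alone) and Ms4a1 (-643 and 254 by 1 of 2 probe sets, absent on both arrays) had decrease calls in the authors' deposited table. The other Ms4a1 probe set (1478 and 1466, absent on both arrays) and the brightest of Ighm (2684 and 3173, present on both) had no difference call. The part of B cells in the Cdkn2a value was not tested.

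**Figure D2:**
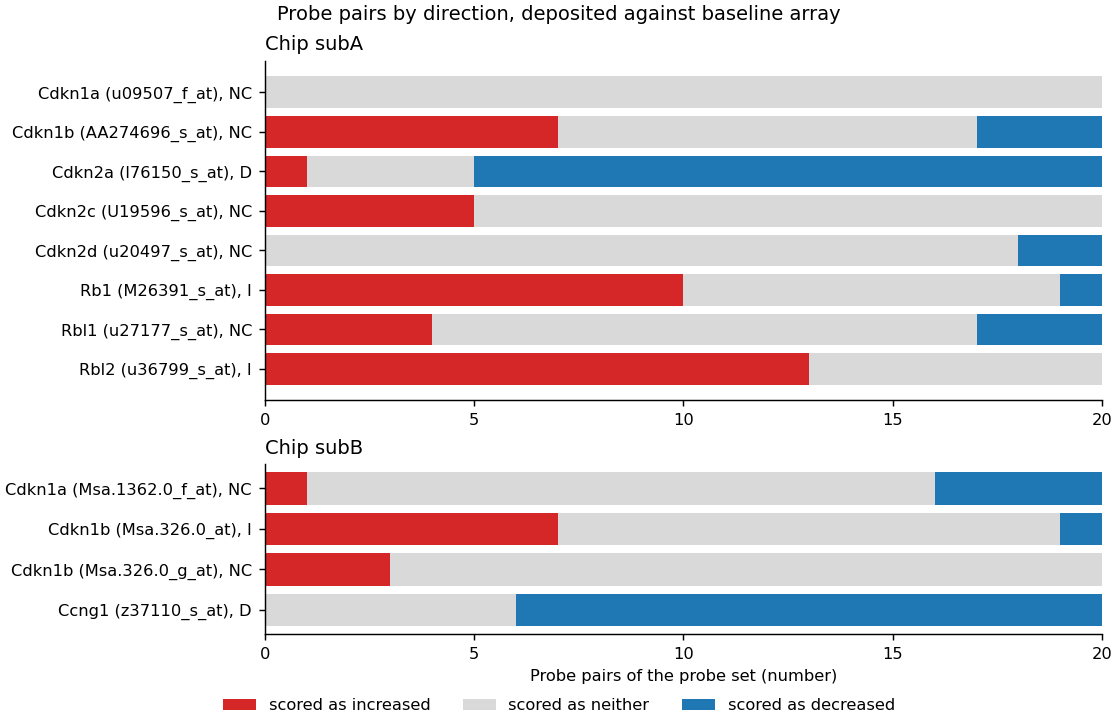
Number of the 20 probe pairs of each member probe set (horizontal axis) scored as increased (red), decreased (blue) or neither (grey) on the deposited against the baseline array, with the deposited difference call after the name (I increase, D decrease, NC no change). Rbl2 and Ccng1 have pairs in 1 direction only, 13 increased and 14 decreased, and Cdkn1a on subA has none scored either way.

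The other Ink4 genes were present on both subA arrays. Cdkn2c, which encodes p18 and lies on chromosome 4 from 109660876 to 109666756, had levels of 2516 on the deposited and 1443 on the baseline array. In the authors' deposited table its fold was 1.6 higher with no difference call, and 5 probe pairs were scored as increased and 0 as decreased. Cdkn2d, which encodes p19 of the Ink4 group and lies on chromosome 9 from 21288459 to 21291421, went the other way, at 2440 and 3205. Its fold in the authors' deposited table was 1.3 lower with no difference call, with 18 of 20 pairs scored as neither. The log2 fold of Cdkn2d, -0.38, was below the SD between probe sets of 1 gene, and that of Cdkn2c, 0.68, was 1 of 4 above it on the higher side.

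The Cip/Kip gene Cdkn1a encodes p21, the inhibitor through which p53 stops the cycle, and lies on chromosome 17 from 29090979 to 29100722. Each chip held a probe set for the same Cdkn1a mRNA record, both of the Affymetrix class whose probes can also match related sequences. On subA the levels were 5283 on the deposited and 5554 on the baseline array, and 20 of 20 probe pairs were scored as neither. On subB the levels were 4686 and 5036, with 1 pair increased and 4 decreased. The arrays of each chip were thus close, with folds of 1.0 and 1.1 lower in the authors' deposited table and no difference call. Since both folds lie near 1, this gene does not tell which direction of either chip is right.

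A further probe set of subB, w82380_s_at, is annotated both as Cdkn1a and as 4930567H12Rik, a noncoding RNA gene on another chromosome, and is kept apart for this reason. Its levels were 8236 and 11288, and its fold in the authors' deposited table was 1.4 lower, with 5 of 20 pairs decreased, 0 increased and no difference call.

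Cdkn1b, the p27 gene on chromosome 6 from 134920401 to 134925525, was detected on subA alone. Probe set AA274696_s_at had levels of 1233 on the deposited and 881 on the baseline array, present on both, with 7 probe pairs increased and 3 decreased. The fold in the authors' deposited table was 1.5 higher with no difference call. On subB 2 probe sets of a shared design had levels of 71 and -581 on the deposited array and of -204 and -853 on the baseline array. All 4 of these levels were absent, so the increase call of the first and the approximate fold of 1.7 higher of both do not measure a change between detected levels.

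Ccng1 encodes cyclin G1, a p53 target that recruits a phosphatase to the p53 regulator Mdm2, and lies on chromosome 11 from 40748552 to 40755309. It was read on subB alone, by z37110_s_at. The level was 1785 on the deposited array and 5373 on the baseline array, present on both, so the deposited array was the lower one. The authors' deposited table gave a fold of 3.0 lower with a decrease call, and 14 of 20 probe pairs were decreased with 0 increased. Ccng1 was among 8 detected probe sets of the chip with at least 14 decreased pairs and 0 increased. A lower fold was deposited for 42 of the 1813 detected probe sets, and 1.99% of detected probe sets counted as changed downward. On this chip the spike-in probe sets lay between 1.1 lower and 1.3 higher, those of Gapdh between 1.1 lower and 1.1 higher, and the 4 of Actb between 1.3 and 1.0 lower. Of the T-cell markers on this chip, Cd4, Cd3d and Cd3g also had decrease calls, at 1.4, 1.8 and 2.1 lower in the authors' deposited table, and Zap70 had an increase call at 2.0. Their part in the Ccng1 value was not tested. With the sign of subB turned, Ccng1 was 3.0-fold higher.

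**Figure D3:**
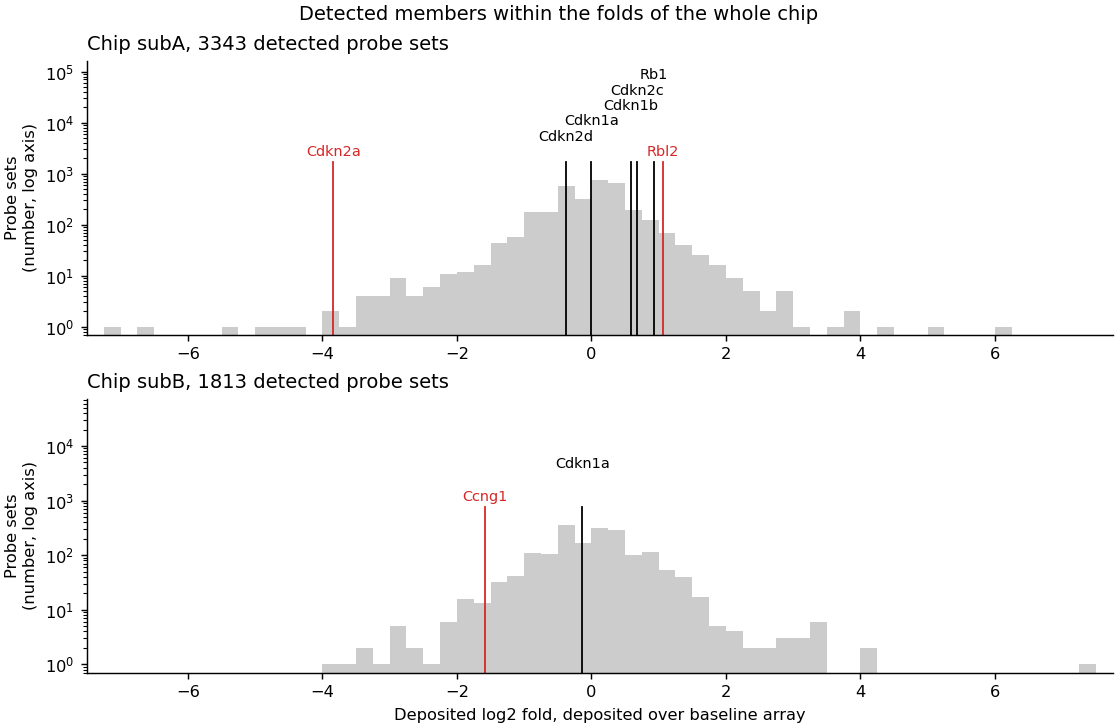
Distribution of deposited log2 folds (horizontal axis, deposited over baseline array) over all detected probe sets of each chip (grey bars, number on a log axis), with lines at the detected members, red where the member counted as changed. Ccng1 at -1.58 lies on the lower side of subB and Rbl2 at 1.07 among the higher folds of subA, while the place of Cdkn2a at -3.84 is that of an approximate fold over an absent level and moves to -2.64 or -1.32 with a floor.

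The 7 detected members of subA had a median log2 fold of 0.58, with 4 above 0, 2 below and 1 at 0, beside a median of 0 over all detected probe sets. Of all named detected genes of subA, 44.7% had a fold above 1. The 4 members above 0 (Cdkn1b, Cdkn2c, Rb1 and Rbl2) had folds of 1.5 to 2.1, the range of the spike-in probe sets of this chip. Whether the shift of the control probe sets has a part in the members' median was not tested. The 2 detected probe sets of subB had log2 folds of -0.14 and -1.58, beside a median of 0 over all detected probe sets of the chip and of -0.14 over its named detected genes, which Cdkn1a equals.

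Of 10 genes of the list of cyclins, cyclin-dependent kinases and their regulators that were detected on subA, 7 had a fold below 1, beside 42.5% of all named detected genes. Among the 7 was Cdc25c, with levels below 0 on both arrays (-68 and -27) and an approximate fold. The list's median log2 fold was -0.20, beside 0 for all named detected genes, and -0.44 with the running median over level removed. In this list 0 genes counted as changed upward and 1 downward, beside 1.76% and 2.69% of all detected probe sets. The 1 was Cdc25a, the phosphatase that activates Cdk2, at 436 on the deposited and 890 on the baseline array, 2.0-fold lower in the authors' deposited table. Its other probe set was 1.3-fold lower without a call. Ccnd2 and Ccnd3, the D-type cyclins of lymphocytes, and Cdk4, their kinase, had folds of 1.2 lower, 1.1 lower and 1.2 higher in the authors' deposited table. Cdk1, the kinase of mitotic entry, named because its call was seen, had a decrease call at 1.7 lower (1789 and 3024), with 11 pairs decreased and 0 increased. On subB, 3 genes were detected and 0 counted as changed, beside 6.23% of all detected probe sets. Ccnf was at 1.4, Ccnb2 at 2.1 and Wee1 at an approximate 1.2 lower. Ccnb2 (530 and 1103) and Wee1 (169 and 248) were absent on the deposited array. They were detected through the baseline array alone, where they were the higher, so nothing is read from their direction.

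Among E2F factors and partners of the pocket proteins, 8 genes were detected on subA, of which 7 had a fold below 1, beside 42.5% of all named detected genes. In the downward direction, 1 of the 8 counted as changed, beside 2.69% of all detected probe sets. This was Hdac2, a histone deacetylase, at 495 on the deposited and 1046 on the baseline array and 2.1-fold lower in the authors' deposited table. Rbbp4, Rbbp6 and Rbbp7, which encode proteins that bind the retinoblastoma protein, were 1.1-, 1.3- and 1.3-fold lower there without a call, while a dimmer probe set of Rbbp6 was 1.3-fold higher, and the median of this list was -0.32 on the log2 scale. On subB, 0 of 4 genes counted as changed, beside 6.23% of all detected probe sets. Id2 was 1.8 lower, Tfdp1 at 1.0, Rbbp7 1.1 higher and Smarca4 1.9 higher with a marginal call.

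Replication genes under E2F control had 16 of 19 detected genes with a fold below 1 on subA, beside 42.5% of all named detected genes. The list's median log2 fold was -0.26, and 0 higher and 1 lower counted as changed, beside 1.76% and 2.69% of all detected probe sets. The 1 was Mcm6, a subunit of the replicative helicase, at 591 and 1940 and 3.3-fold lower in the authors' deposited table by aa689977_f_at. Its other probe set, D86726_s_at, was below 0 on both arrays, with an approximate fold of 1.5 higher. Mcm7 had a decrease call at 1.7 lower, Rrm2 was 1.2 lower and Lig1 was 1.2 higher in the authors' deposited table. On subB, 0 of 3 counted as changed, beside 6.23% of all detected probe sets, with Pcna 1.5 lower, Mcm3 1.1 lower and Mki67 1.1 higher.

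The p53 pathway list had 7 of 11 detected genes with a fold above 1 on subA, beside 44.7% of all named detected genes. The list's median log2 fold was 0.26, with 1 gene changed upward and 0 downward, beside 1.76% and 2.69% of all detected probe sets. Ei24, a gene induced by p53, had levels of 3073 and 1372, and its fold of 2.2 higher in the authors' deposited table rested on 15 increased pairs and 1 decreased. Mdm2, the ubiquitin ligase of p53, had an increase call at 1.6 higher (8550 and 5481) by 1 probe set and the same fold without a call by the other. Tap1 was 1.5 higher and Cd82 was at 1.0. The folds of Ei24, Mdm2 and Tap1 lie within or near the range of the spike-in probe sets of subA, whose part in them was not tested. On subB, 1 of 2 detected genes counted as changed, in the downward direction, beside 1.99% of all detected probe sets. This was Ddit4, a stress-induced inhibitor of mTORC1, which was 2.8-fold lower at 4769 and 13291 with 16 decreased pairs and 0 increased. Sod2 was 1.3 higher in the authors' deposited table. Ddit4 was thus lower on the same array as Ccng1.

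Of the genes that degrade these inhibitors and p53, 0 of 10 detected on subA counted as changed, beside 4.46% of all detected probe sets. Of the 10, 7 had a fold below 1, beside 42.5% of all named detected genes. The list's median log2 fold was -0.26. Cdc34, the ubiquitin-conjugating enzyme that works with SCF ligases, had a decrease call at 1.8 lower in the authors' deposited table, and Psme3, Cops6 and Cul2 were 1.4 lower, 1.1 lower and 1.0 higher. On subB 1 of 2 counted, Psme3 at an approximate 2.8 higher over an absent baseline, with Skp1 1.1 higher. Of all detected probe sets of that chip, 77 of 1813 counted as changed upward.

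Genes linked to quiescence and FoxO factors showed both directions. On subA, 1 of 10 detected genes counted as higher, Tsc1, an mTORC1 inhibitor, at 2.2 over an absent baseline (168 and 61), and 1 as lower, Ccr7, a lymph node homing receptor, at 2.3 in the authors' deposited table. Over all detected probe sets of subA, 1.76% counted as higher and 2.69% as lower. Btg1 was 1.3 higher and Max 1.1 lower, and the list's median log2 fold was -0.07. On subB, 1 of 7 counted as higher, Gadd45b at 2.3 (2496 and 898), and 0 as lower, with Max 1.5 and Btg1 1.0 lower in the authors' deposited table. Over all detected probe sets of subB, 77 of 1813 counted as higher and 1.99% as lower. The probe sets of Gas5 disagreed, at 1.2 lower without a call (7086 and 8828) and 1.6 higher with an increase call (7826 and 4931). The median was -0.26 beside -0.14 for all named detected genes of the chip. Of the remaining inhibitors, Cdkn1c was not detected on either chip, and Cdkn3 had levels of 21 and 138 with no difference call.

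**Figure D4:**
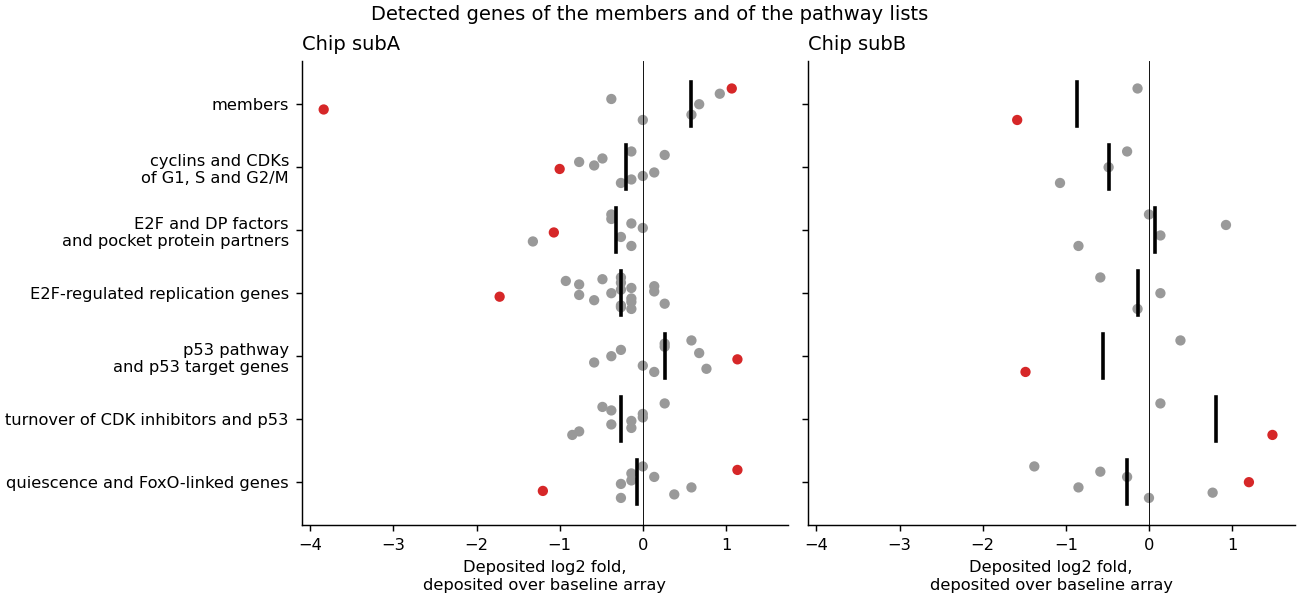
Deposited log2 fold (horizontal axis, deposited over baseline array) of each detected gene of the members and of 6 pathway lists on each chip, red where the gene counted as changed, with a black bar at the list's median. On subA the median of the members is 0.58 and those of cyclins, E2F partners and replication genes are -0.20, -0.32 and -0.26. The members above 0 on subA lie within the fold range of the spike-in probe sets of that chip.

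How far each member's fold depends on its computation is shown by the plot of alternatives. Recomputing the fold from the levels moved Rbl2 from a log2 fold of 1.07 to 1.22 and Rb1 from 0.93 to 0.92, and Ccng1 from -1.58 to -1.59. Only Cdkn2a moved by more than the SD between probe sets of 1 gene, from -3.84 to -2.64 and -1.32 with the 2 floors. The other detected members had levels above 500 units on both arrays, so the floors could not act on them. Chip medians and running medians were 0 for the detected members, so removing them could change no fold.

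**Figure D5:**
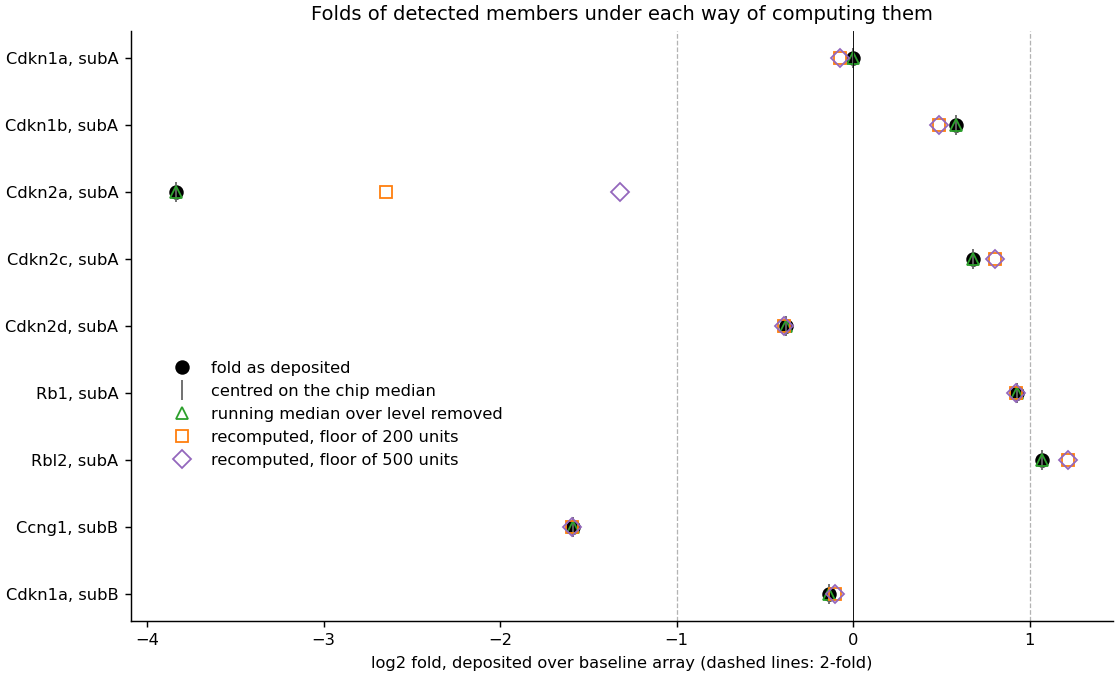
log2 fold of each detected member (horizontal axis, deposited over baseline array) as deposited, centred on the chip's median, with the running median over level removed, and recomputed from the levels with floors of 200 and 500 units, with dashed lines at 2-fold. Markers coincide for all members but Cdkn2a, which runs from -3.84 to -1.32, apart from shifts of at most 0.15 for the others. The floors, the centring and the running median could not move those others.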

How the data were processed

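Biotinylated cRNA from total RNA was hybridised to the Mu11k chips, per the labels' protocols. The deposited values are intensity values (average differences) per probe set. The signed fold is a score of the authors' deposited table, per the file headers, and carries a mark where approximate. The software, its version and the scaling are not given in the sources used here. From these files the baseline level, a signed log2 fold, counts of changed probe sets and list medians were computed. Counts leave out the control probe sets, 55 on either chip. An asterisk in the baseline column was read as absent, since the median implied baseline was 58 and 62 where it stands, against 1253 and 2708 elsewhere. Symbols came from the platform annotation (5560 probe sets with 1 symbol, 197 with several and 827 with none on subA; 2001, 27 and 4567 on subB), and lookup through Entrez IDs in the RefSeq gene table (GRCm38.p6) altered 0. Lists used the probe set of highest mean level per gene. All member probe sets are described, and of each list the changed genes plus unchanged genes of highest level up to 4. Columns of other samples numbered 0. Members and lists were chosen with earlier results of these data known. Alternatives were other thresholds (1.5 and 3), calls, presence filters, centring, a running median over 300 probe sets, and floors. The rule and the running median were run on simulated data as a check of the code. There the difference call was derived from the simulated fold, with less noise than the SD between probe sets of a gene. That check therefore does not show how well the rule performs on these arrays. Upstream windows of 250 bases came from RefSeq promoter sequences, which matched 9 of 10 members. Software was Python 3.11.15 with NumPy 2.4.6, pandas 2.3.3, matplotlib 3.10.9 and SciPy 1.17.1.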

Additional observations from a re-analysis of the deposited data

How the results depend on the processing

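The number of changed probe sets on subA, 149, was 235 and 66 with fold thresholds of 1.5 and 3, 383 without a difference call, 92 with presence on both arrays and 91 with folds recomputed over a floor of 500 units. On subB the 113 became 46 with a threshold of 3, 275 without a difference call, 176 without a presence filter, 48 with presence on both arrays and 66 without approximate folds. Of the 2 changed members of subA, 1 was left with a threshold of 3 (Cdkn2a), with presence on both arrays or without approximate folds (Rbl2 each time). Ccng1 counted under every alternative for subB. With signs turned, the members' median log2 fold was -0.58 on subA and 0.86 on subB, and the log2 folds of Cdkn2a, Rbl2 and Ccng1 were 3.84, -1.07 and 1.58. No alternative settles the direction. No paired analysis was possible because each chip has 1 array per condition.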
